A study of Mus musculus with 273 samples.

Results

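The miRNAs described here are 41 hairpins of the imprinted Dlk1-Dio3 domain on mouse chromosome 12, out of 1226 hairpins in the deposited tables. They were taken by name: miR-770 and miR-673 at the Meg3 and Rtl1 end, miR-341, miR-1188 and miR-370 in Rian, and the 36 hairpins of the miR-379/410 cluster. All 41 had a row in each of the 4 tables. The mice were wild-type C57BL/6J males of 26 weeks, and small RNA was sequenced from 4 tissues, namely the cortex and striatum of the right side, the hypothalamus and the liver, every 3 h from 0 to 36 h. There was no treatment or mutant, and the 13 time points fell on 8 positions of the day, called ZT (zeitgeber time, hours counted from lights-on). Cortex had 78 libraries, striatum 46, hypothalamus 72 and liver 77, under 79 different animal labels. Each ZT from ZT0 to ZT12 was sampled on 2 passages, 24 h apart, and ZT15 to ZT21 on 1. A group of 1 tissue and ZT held 2 to 12 libraries, and striatum had none at ZT15.

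The Dlk1-Dio3 domain is imprinted: Dlk1 and Rtl1 are expressed from the paternal chromosome, while Meg3, Rian, Mirg and the miRNAs are expressed from the maternal one. The hairpins are cut from long noncoding transcripts, and each can yield a 5p and a 3p mature miRNA whose seed, the bases after the first, pairs with target mRNAs. The cluster is found in placental mammals, is known for high expression in brain and embryo, and includes miR-134, which restrains dendritic spine growth, and miR-485, which acts at synapses.

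On GRCm38 the members fell into 3 stretches. MiR-770 and miR-673 lay at chr12:109563692-109572080, the Rian miRNAs at chr12:109611500-109618336, and the miR-379/410 cluster at chr12:109709060-109747960, a span of 38.9 kb. The 39 members with a hairpin in the RefSeq table were all on the plus strand. RefSeq's Meg3 (chr12:109540996-109571729) held 1 member, Rian (chr12:109603945-109661716) held 3 and Mirg (chr12:109734981-109749458) held 9, while 28 lay in no long noncoding RNA of that annotation. GENCODE extends Mirg upstream, so that 13 members lay inside it and 9 overlapped its exons, among them miR-134, miR-369 and miR-410. MiR-770 overlapped an exon of Meg3, and none of the 3 Rian members overlapped an exon.

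The tables gave 1 count per hairpin with both arms added, so the arms shown next cannot be told apart in the values. RefSeq (GRCm38.p6) gave 78 mature sequences for the 41 members: 37 members had 2 and 4 had 1, and none was identical to a mature miRNA of another gene. The most abundant members are shown first, with seeds (bases 2 to 8) in capitals, 5′ to 3′. Their hairpins, under the names of the tables, are mmu-mir-410 (chr12:109743715-109743795), mmu-mir-411 (chr12:109710175-109710256), mmu-mir-541 (chr12:109742409-109742498), mmu-mir-381 (chr12:109726822-109726896), mmu-mir-300 (chr12:109724313-109724391) and mmu-mir-341 (chr12:109611500-109611595).
miR-410-3p: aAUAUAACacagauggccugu
miR-411-5p: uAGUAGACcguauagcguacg
miR-541-5p: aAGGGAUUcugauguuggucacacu
miR-381-3p: uAUACAAGggcaagcucucugu
miR-300-3p: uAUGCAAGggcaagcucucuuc
miR-341-3p: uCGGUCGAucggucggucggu

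Pairs of members, 8 members in all, shared a seed with each other and are shown together because the seed is the part read for target pairing. MiR-379-3p and miR-411-3p differed at 2 of 22 bases, and miR-376b-5p and miR-376c-5p at 1 of 22. MiR-758-5p and miR-1197-5p differed at 7 of 21 bases, and miR-410-5p and miR-494-5p at 5 of the 21 they have in common. These pairs came from hairpins at chr12:109709060-109709125 (miR-379) and chr12:109723458-109723539 (miR-376b), and at chr12:109712810-109712890 (miR-758).
miR-379-3p: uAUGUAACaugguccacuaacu
miR-411-3p: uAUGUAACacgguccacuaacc
miR-376b-5p: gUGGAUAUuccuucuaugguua
miR-376c-5p: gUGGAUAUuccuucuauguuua
miR-758-5p: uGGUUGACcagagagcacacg
miR-1197-5p: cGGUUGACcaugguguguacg
miR-410-5p: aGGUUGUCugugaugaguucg
miR-494-5p: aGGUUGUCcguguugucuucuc

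Further members are shown because results turn on them: miR-770 (chr12:109563692-109563785) and miR-134 (chr12:109734139-109734209) for the contrast of brain regions, miR-299a (chr12:109710638-109710700) for the opposite contrast, and miR-369 (chr12:109743418-109743496) and miR-543 (chr12:109717258-109717333) for their spread between library runs.
miR-770-5p: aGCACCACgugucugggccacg
miR-770-3p: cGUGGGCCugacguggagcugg
miR-134-5p: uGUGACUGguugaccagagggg
miR-758-3p: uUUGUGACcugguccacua
miR-299a-5p: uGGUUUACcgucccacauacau
miR-369-3p: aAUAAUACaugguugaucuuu
miR-543-3p: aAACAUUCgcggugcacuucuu

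A library held 1164449 to 4980887 counts in cortex, 26341 to 4022070 in striatum, 1079380 to 3954710 for hypothalamus and 1988671 to 5236177 for liver. The 26341 counts belonged to striatum ZT9 replicate 6, and the next lowest total in striatum was 743902. Levels are given as CPM, the counts scaled to a common library total. Where a hairpin had no count, the upper limit was 3 counts, equal to 0.602 to 2.58 CPM in cortex and 0.573 to 1.51 CPM in liver, while in striatum it reached from 0.746 to 113.9 CPM and in hypothalamus from 0.759 to 2.78 CPM. These floors cover counting error only. A set of 12 libraries, 8 of them from striatum, stood apart from their tissue over miRNAs outside the domain, and results that change without them are given. The summed hepatocyte markers (miR-122, miR-192 and others, 6 in all) ran from 362774 to 451405 CPM in liver against 4277 to 21768 CPM in brain. The 11 neuron markers summed to 11863 to 34874 CPM in cortex, 4982 to 15756 in striatum, 2372 to 6702 in hypothalamus and 10.8 to 30.2 in liver, where 6 of the 11 had no count. In bulk tissue, fewer cells of a type and less RNA per cell cannot be told apart.

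The members together held several percent of the deposited miRNA counts in each brain region and a trace in liver. In cortex they held from 6.32% to 8.32% of the counts of a library, with a median of 7.24% (mean 7.20% ± 0.412, SD, n = 78). In striatum the share ran from 4.11% to 9.36%, with a median of 8.16% (7.88% ± 1.02, n = 46), and in hypothalamus from 7.73% to 10.01%, with a median of 9.03% (9.02% ± 0.454, n = 72). The 3 regions overlapped. In liver the share ran from 0.0103% to 0.0443%, with a median of 0.0204% (0.0218% ± 0.00693, n = 77), so no liver library came near any brain library. The other miRNAs of the domain, led by miR-127 and miR-434, are also high in brain and make up 26.4%, 30.6% and 38.4% of cortex, striatum and hypothalamus counts. With those taken out of the denominator, the members' mean shares were 9.79%, 11.4% and 14.7%. All these are shares of the counts as deposited, in which the miR-124 and miR-9 hairpins had means of at most 17.8 CPM in brain. How reads that match more than 1 hairpin were counted is not stated.

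A few hairpins carried most of this signal. The 3 most abundant members held 57.7% of the members' sum in cortex, 55.2% in striatum and 56.6% in hypothalamus, and the 5 most abundant held 79.1%, 76.7% and 75.6%. By stretch, the 36 miR-379/410 hairpins summed to 69107 ± 3785 CPM in cortex (n = 78), against 2422 ± 410 for the 3 Rian hairpins and 492 ± 68.6 for miR-770 and miR-673. In hypothalamus the same stretches summed to 86206 ± 4190, 3388 ± 414 and 620 ± 109 CPM (n = 72). Members with a mean of at least 1000 CPM numbered 8 in cortex, 10 in striatum and 14 in hypothalamus, and none reached 100 CPM in liver. MiR-654 stayed under 0.0362 CPM on average in every tissue and was the 1 member below 1 CPM in each brain region. It was removed by the filter on low counts in each test.

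**Figure D1:**
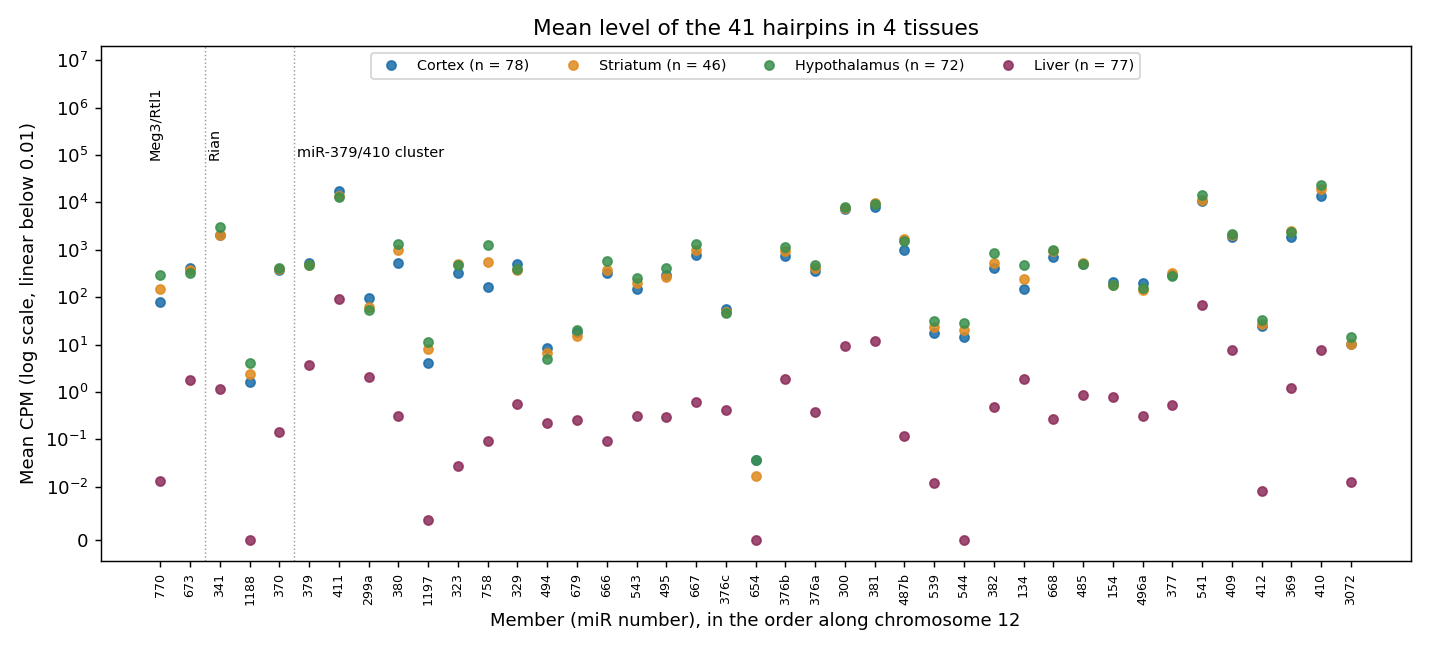
Mean CPM (log scale, linear below 0.01) of the 41 members in order along chromosome 12, with 1 point per tissue (cortex n = 78, striatum n = 46, hypothalamus n = 72, liver n = 77 libraries). Neighbouring hairpins differ by several orders of magnitude in brain, the 3 brain regions lie close together, and the liver points lie below them throughout.

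MiR-410 and miR-411 exchanged first place between regions. MiR-410 ran from 11442 to 16532 CPM in cortex (median 13439), 5808 to 23920 in striatum (19304) and 18700 to 27875 in hypothalamus (23474). MiR-411 ran from 13854 to 19537 CPM in cortex (median 17247), 7345 to 18909 in striatum (13820) and 10614 to 15738 in hypothalamus (12929). For miR-410 the cortex and hypothalamus libraries did not overlap, while for miR-411 they did.

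MiR-541 followed both in cortex, at 10929 ± 1187 CPM, and in striatum, at 11111 ± 2181. In hypothalamus its mean, 14639 ± 1673 CPM, was above that of miR-411 and below that of miR-410. MiR-381 stood at 8144 ± 1208, 9502 ± 2093 and 9201 ± 799 CPM, and miR-300 at 7288 ± 912, 7462 ± 1533 and 7922 ± 791 CPM (SD; n = 78, 46 and 72). The ranges of the 3 regions overlapped for each of these. MiR-341, the most abundant Rian member, had 2044 ± 388 CPM in cortex, 2050 ± 460 in striatum and 2962 ± 380 in hypothalamus, while its neighbour miR-1188 had 1.65 ± 0.833, 2.46 ± 1.65 and 4.15 ± 1.86 CPM.

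Brain regions were compared in 1 edgeR quasi-likelihood fit that also held ZT as a factor. A member was called at an adjusted p under 0.05 and a log2 ratio of at least 1 in size. Of 40 members tested, 7 were lower in cortex than in hypothalamus and none was higher, where 17.1% of all 414 miRNAs tested were called lower in cortex and 11.1% higher. In cortex against striatum 1 member was lower in cortex, where 7.73% of all miRNAs were called lower and 6.76% higher. In striatum against hypothalamus 3 were lower in striatum, where 8.45% of all miRNAs were called lower and 5.07% higher. The members were thus called about as often as all miRNAs or less. The median log2 ratio of the members was -0.41 for cortex over hypothalamus, -0.13 for cortex over striatum and -0.17 for striatum over hypothalamus, beside -0.04, -0.04 and 0.00 for all miRNAs tested.

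MiR-758, which is known to repress the cholesterol transporter gene Abca1, differed most. It ran from 123.9 to 356 CPM in cortex (median 156), 115 to 1109 in striatum (547) and 717 to 1810 in hypothalamus (1262). Every hypothalamus library was above every cortex library, and striatum spanned the gap. Cortex was lower than hypothalamus by a log2 ratio of -2.92 ± 0.06 (SE, adjusted p = 4.77e-128, edgeR) and lower than striatum by -1.73 ± 0.07 (adjusted p = 2.37e-72), and striatum was lower than hypothalamus by -1.19 ± 0.07 (adjusted p = 1.59e-41).

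MiR-770, from an exon of Meg3, ran from 38.1 to 143.2 CPM in cortex (median 76.4), 24.5 to 326 in striatum (148.1) and 156 to 524 in hypothalamus (265). Cortex and hypothalamus did not overlap, and their log2 ratio was -1.86 ± 0.06 (adjusted p = 1.39e-89). MiR-134 ran from 121 to 192.1 CPM in cortex (median 149), 89.1 to 531 in striatum (236) and 384 to 556 in hypothalamus (490). It showed the same order, without overlap of cortex and hypothalamus, at a log2 ratio of -1.64 ± 0.06 (adjusted p = 2.94e-82). In striatum against hypothalamus, miR-134 was at -1.02 ± 0.07 and miR-770 at -1.01 ± 0.07, and without the 12 libraries that stood apart they were at -0.98 and -0.93, short of the log2 ratio of 1.

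The other 4 members called between cortex and hypothalamus were miR-1197 (-1.39 ± 0.06), miR-380 (-1.33 ± 0.06), miR-1188 (-1.30 ± 0.11) and miR-382 (-1.04 ± 0.06). MiR-380, miR-1197 and miR-758 lie within the stretch chr12:109711803-109712890, and miR-382 and miR-134 are close neighbours at the upstream end of Mirg. MiR-323, which lies between miR-1197 and miR-758, had 322 ± 51.2, 506 ± 88.5 and 490 ± 56.8 CPM in cortex, striatum and hypothalamus and was not called. In all, 5 members had no overlap between cortex and hypothalamus libraries (miR-758, miR-770, miR-134, miR-380 and miR-410), where 5.18% of all miRNAs with a count had none.

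**Figure D2:**
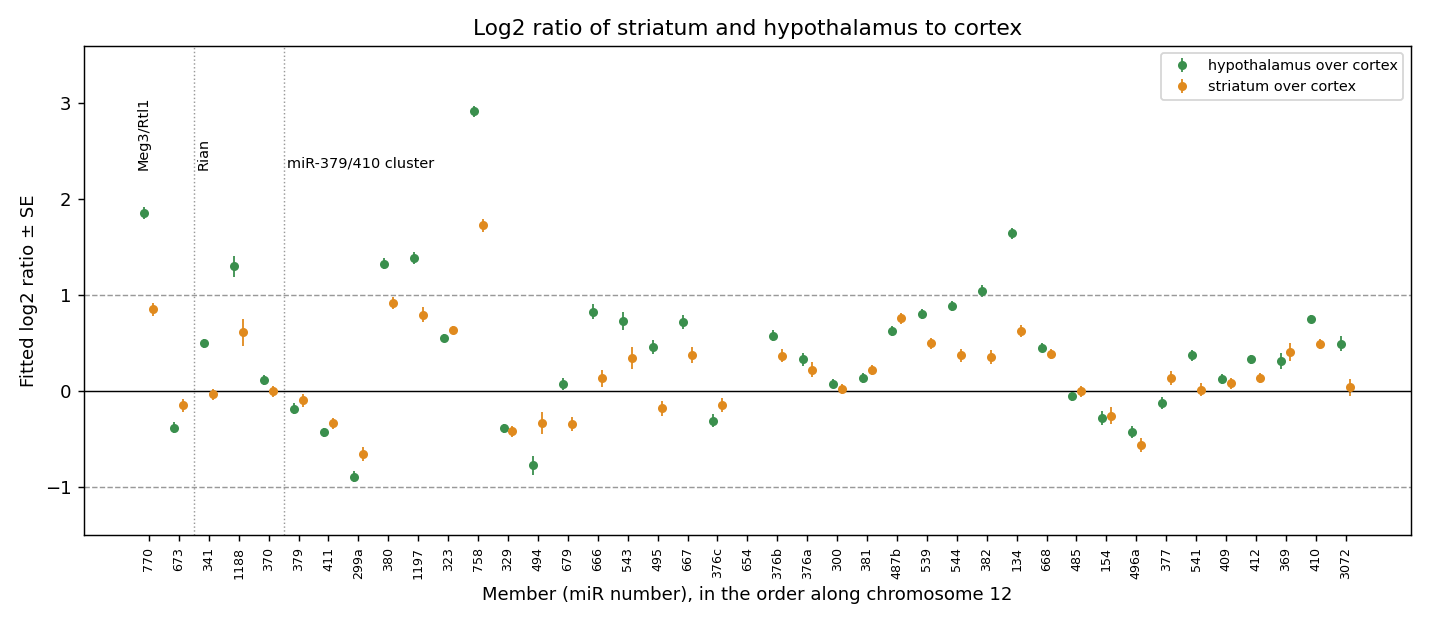
Fitted log2 ratio to cortex (vertical axis, bars for SE) of the 40 members tested, in order along chromosome 12, for hypothalamus (green) and striatum (orange), with dashed lines at the log2 ratio of 1 set for a call. MiR-758, miR-770 and miR-134 lie highest for hypothalamus, and miR-299a lies lowest.

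A smaller set of members ran the other way, with differences below the size set for a call. They are named here after their values were seen. MiR-299a ran from 64.4 to 125 CPM in cortex (median 95.7), 29.8 to 115 in striatum (60.2) and 37.0 to 79.0 in hypothalamus (52.3), with overlap, and cortex exceeded hypothalamus by 0.89 ± 0.06 on the log2 scale (adjusted p = 2.92e-34, edgeR). The ratios of cortex to hypothalamus were 0.78 ± 0.10 for miR-494, 0.43 ± 0.06 for miR-496a and 0.43 ± 0.05 for miR-411. No scaling tried turned the direction of these 4. MiR-299a lies directly after miR-411 and before miR-380, so members with opposite ratios were close neighbours. Counting differences of any size at an adjusted p under 0.05, 9 members were higher and 27 lower in cortex than in hypothalamus. Of all miRNAs tested, 40.8% and 46.1% were.

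Scaling moved these ratios together. With RLE size factors in place of TMM, the median of all miRNAs moved from -0.04 to -0.32 for cortex over hypothalamus and the members' median from -0.41 to -0.69, so the members stayed 0.37 below all miRNAs in both. The number of members called rose to 12 for cortex and hypothalamus and to 3 for cortex and striatum, the added ones being lower in cortex as well. With that scaling 100 of the 414 miRNAs tested were called lower and 29 higher in cortex than in hypothalamus, and 49 lower and 21 higher in cortex than in striatum. At an adjusted p under 0.05 and any size, members higher and lower went from 9 and 20 to 5 and 27 for cortex over striatum. With TMM 35.5% and 41.1% of all miRNAs were higher and lower there. For striatum over hypothalamus the members went from 6 and 20 to 1 and 27 (37.7% and 37.9% of all miRNAs with TMM). Of the other miRNAs of the domain, 0 of 10 tested were called between any pair of brain regions, with a median log2 ratio of -0.36 for cortex over hypothalamus. Marker lists of other cells also differed between the regions. The summed neuron markers had medians of 22648 CPM in cortex, 9543 in striatum and 4063 in hypothalamus, against the direction of the called members. That order came mostly from miR-128-1 and miR-128-2, with means of 14730 and 7235 CPM for cortex against 1588 and 1541 CPM for hypothalamus. MiR-138-1 (393 and 89.8 CPM) and miR-138-2 were also lower in hypothalamus, as were the miR-9 hairpins, miR-124-1 and miR-124-3. MiR-137 (673 and 842 CPM) and miR-124-2 (3.68 and 10.8 CPM) went the other way. The choroid plexus markers had medians of 4891, 14561 and 17612 CPM over cortex, striatum and hypothalamus. Those of the epithelium and pituitary markers were 347, 415 and 1197 CPM, and both sums went in the direction of the called members. Nearly all of the choroid plexus sum was miR-204, as miR-211 had means of 12.8 CPM in cortex and 14.7 in hypothalamus. In the other list miR-375 rose from a mean of 165 CPM in cortex to 3488 in hypothalamus. MiR-141, miR-200c and miR-7b were also higher in hypothalamus. MiR-200a (62.3 and 58.8 CPM), miR-200b (63.6 and 61.7) and miR-429 were not. The part of these lists in the ratios was not tested.

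**Figure D3:**
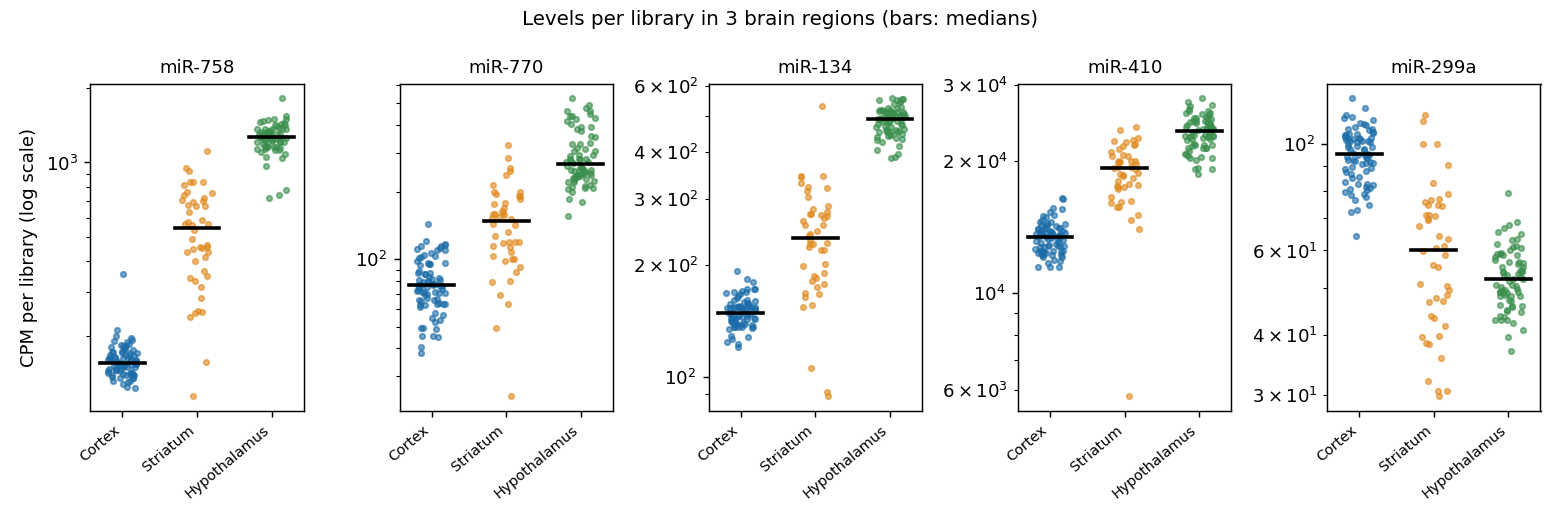
CPM per library (log scale) of miR-758, miR-770, miR-134, miR-410 and miR-299a in cortex (n = 78), striatum (n = 46) and hypothalamus (n = 72), with 1 point per library and bars at the medians. The first 4 rise from cortex to hypothalamus with striatum between and most spread, and miR-299a falls.

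The library names carry numbers and codes from which 14 library runs were read, and several members stepped between runs. A run is a stretch of consecutive library numbers that share 1 code; what differed between runs is not stated in the labels. Among members with a mean of at least 100 CPM, the median share of the variance of log2(CPM + 1) that lay between runs was 49.2% in cortex (29 members), 38.7% in striatum (30) and 63.7% in hypothalamus (30). Over all miRNAs at that level the medians were 44.0%, 36.1% and 51.9%. MiR-369, from an exon of Mirg, had the highest share of the members in each region, at 97.3%, 78.2% and 92.9%, and miR-543 came next at 93.9%, 72.5% and 91.8%. MiR-134 had 36.0%, 7.45% and 26.6%.

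MiR-369 was high in runs 5 and 6, runs that were picked out after the values were seen. In cortex its 15 libraries of these runs had 2873 to 3725 CPM (median 3380), against 1147 to 1896 (median 1534) in the other 63. In striatum 13 libraries had 2979 to 5041 CPM (median 3916) against 626 to 2847 (median 1908) in 33, and in hypothalamus 14 libraries had 3320 to 4317 CPM (median 3937) against 1433 to 2874 (median 2029) in 58. No library of the one set reached the other in any region, and the ratios of means were 2.22, 2.04 and 1.89.

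MiR-543 showed the same runs, with ratios of 2.43 in cortex and 2.40 in hypothalamus, both without overlap, and 2.08 in striatum with overlap. MiR-154 had 1.55, 1.38 and 1.59. Other members had other runs: miR-666 ran from 808 to 1102 CPM (median 1009) in the 16 hypothalamus libraries of runs 1 and 2, against 362 to 801.8 (median 447) in the other 56. MiR-667 in runs 7 to 9 was at 0.55, 0.47 and 0.50 of its mean elsewhere in cortex, striatum and hypothalamus. MiR-410 differed little in any of these run sets, with ratios from 0.91 to 1.15. The cause of these steps was not tested.

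**Figure D4:**
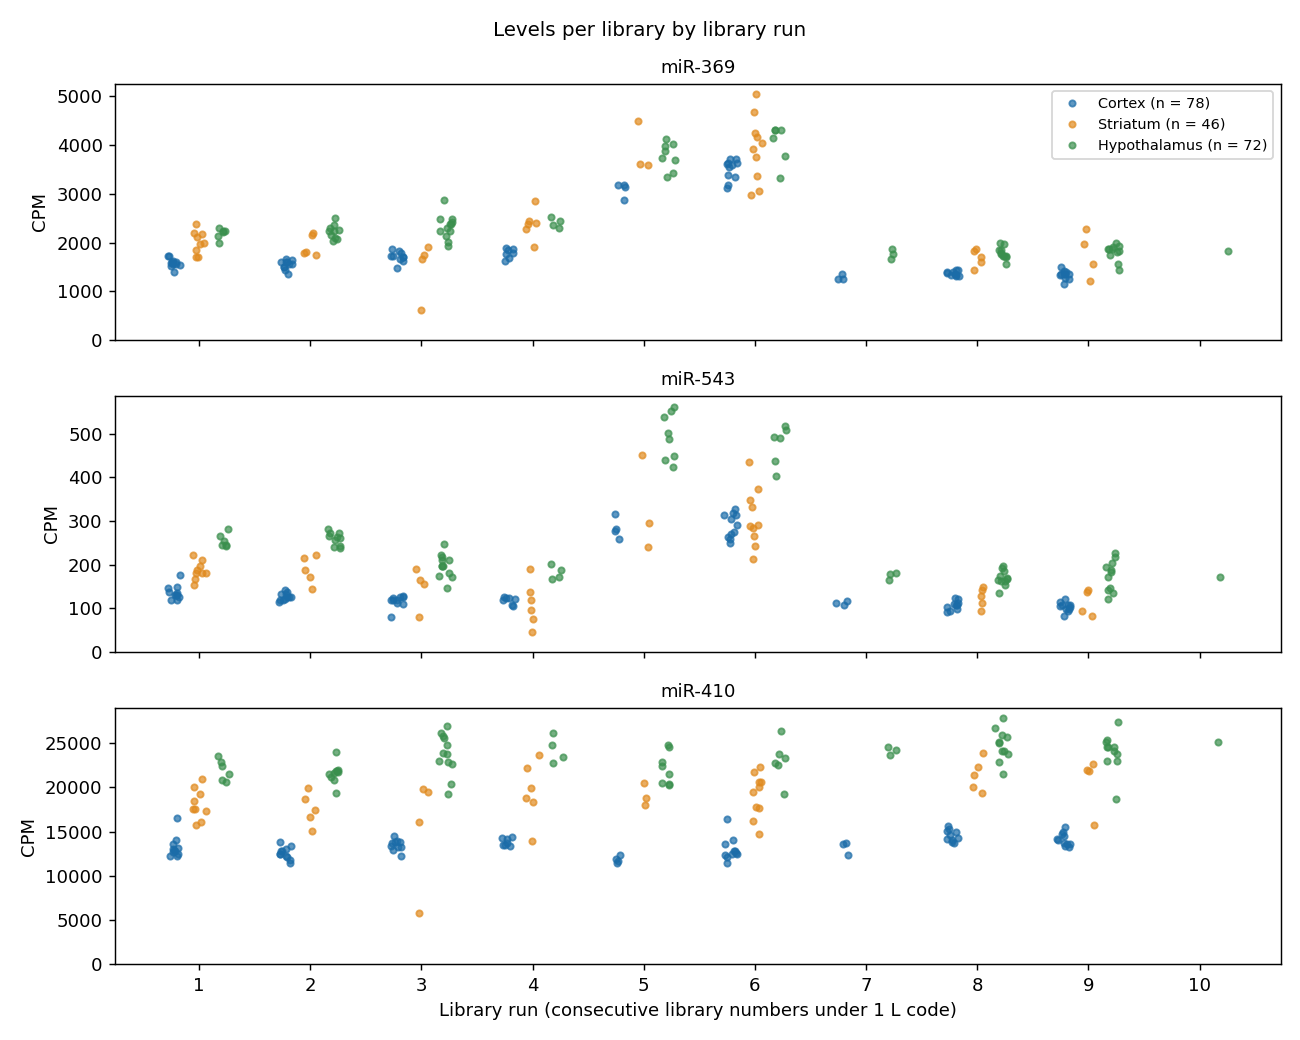
CPM per library of miR-369, miR-543 and miR-410 (panels) by library run (runs 1 to 10 on the horizontal axis) and brain region (colour), with 1 point per library. MiR-369 steps up in runs 5 and 6 in each of the 3 regions, where the level of miR-410 stays within the spread of the other runs.

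The differences between regions held inside runs. In each of the 9 runs with at least 2 libraries of both regions, all 7 called members were lower in cortex than in hypothalamus. The log2 ratios of means ran from -3.11 to -2.79 for miR-758, -2.12 to -1.68 for miR-770 and -1.80 to -1.62 for miR-134. MiR-299a was higher in cortex in 9 of 9 runs (0.73 to 1.10), and so was miR-411 (0.26 to 0.47). For cortex against striatum, miR-758 was lower in cortex in 8 of 8 runs (-2.34 to -1.38).

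Across libraries of 1 region the members moved together only in part. The median Pearson's r over pairs of members was 0.16 in cortex (406 pairs, 78 libraries), 0.40 in striatum (435 pairs, 46 libraries) and 0.27 in hypothalamus (435 pairs, 72 libraries), and with run means removed it was 0.20, 0.47 and 0.25. These used log2(CPM + 1); with counts scaled to those outside the domain in place of all counts, the median r over all libraries was 0.24, 0.52 and 0.43. These are descriptions, since values of 1 library share its depth, run and composition. By the lowest r of the 3 regions, the closest pair within runs was miR-668 and miR-485, neighbouring exonic hairpins of Mirg, at 0.70 to 0.74 in the 3 regions. MiR-380 and miR-758 had 0.65 to 0.71, and miR-380 and miR-410 had 0.64 to 0.85. MiR-543 and miR-485 had 0.03 to 0.21 over all libraries and 0.57 to 0.74 within runs.

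Members were far lower in liver. All 40 members tested were called higher in each brain region than in liver, where 53.4%, 53.1% and 52.4% of all miRNAs tested were called higher in cortex, striatum and hypothalamus. They passed the filter on low counts through brain, so this count is a description. All liver libraries were in runs 10 to 14, and all brain libraries but 1 from hypothalamus in runs 1 to 9. Liver against brain therefore cannot be told apart from library run. The other miRNAs of the domain were called higher in each region as well (10 of 10 tested). The median log2 ratio of the members was 7.84, 7.78 and 8.26, or 7.74, 7.72 and 7.97 with members at 0 in liver set at their bound, beside 1.31, 1.40 and 1.27 for all miRNAs. Scaling by library totals moved the members' medians to 9.76, 9.75 and 10.24 and those of all miRNAs to 3.23, 3.35 and 3.25. For 39 of the 41 members the cortex and liver libraries did not overlap, as for 26.9% of all miRNAs with a count. Hypothalamus and liver likewise did not overlap for 39 members (27.9%), and striatum and liver for 34 (19.3%).

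The size of the drop differed widely among members. MiR-411 and miR-541 together made up most of the liver signal, at 42.7% and 31.0% of the members' sum, and miR-381 came next at 5.48%. MiR-411 ran from 39.9 to 199 CPM in liver (median 87.2) and miR-541 had 67.5 ± 25.7 CPM, which put cortex 5.61 ± 0.05 and 5.43 ± 0.06 higher on the log2 scale. MiR-410 held 18.6% to 25.8% of the members' sum in brain and 3.46% in liver, where it ran from 2.08 to 14.1 CPM (median 7.40), and its log2 ratios to liver were 8.89 ± 0.05, 9.37 ± 0.06 and 9.64 ± 0.05. Among the 19 members with at least 100 counts in liver over all libraries, these ratios of miR-410 were the highest and those of miR-299a the lowest (3.62 ± 0.08, 2.96 ± 0.09 and 2.72 ± 0.08).

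Other members were almost absent from liver. MiR-323 had 6 counts over all 77 liver libraries, with log2 ratios of 11.66 ± 0.29, 12.30 ± 0.29 and 12.22 ± 0.29, and miR-487b had 26 counts, with 11.15 ± 0.22, 11.91 ± 0.22 and 11.77 ± 0.22. MiR-1188, miR-654 and miR-544 had no count. The log2 ratios above are on the TMM scale, whereas the folds that follow are ratios of pooled CPM without TMM and run higher. Against a floor of 3 counts over the whole liver group, pooled levels of miR-544 were at least 1147-fold higher in cortex, 1393-fold in striatum and 2124-fold in hypothalamus. Those of miR-1188 were at least 132-fold, 216-fold and 343-fold higher. On the TMM scale these log2 bounds were 8.22, 8.45 and 9.06 for miR-544 and 5.10, 5.76 and 6.43 for miR-1188. MiR-770 had 3 counts, and the ratio of pooled CPM was 6405 in cortex (95% Poisson interval of the liver count 2192 to 31057) and 24057 in hypothalamus (8232 to 116655). By pooled CPM the ratio was 12277 and 18941 for miR-323, and 8578 and 13788 for miR-487b. MiR-1197 had 1 count, miR-412 had 2, and miR-3072 and miR-539 had 3.

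In the 24 h cosine fit of each tissue, no member passed an adjusted p of 0.05 by edgeR's quasi-likelihood test. The fits of cortex and striatum each tested 39 members, that of hypothalamus 40 and that of liver 7; 0.254%, 0.528%, 0.263% and 4.98% of all miRNAs tested passed in them. At an unadjusted p under 0.05 the counts were 1, 0, 0 and 5, beside 16 of 393, 11 of 379, 5 of 380 and 49 of 241 miRNAs tested. DESeq2 called 0 members in each tissue. The members with the smallest adjusted p were miR-370 in cortex (peak-to-trough 0.10 on the log2 scale, adjusted p = 0.931), miR-1197 in striatum (0.50, 0.998) and miR-370 in hypothalamus (0.12, 0.999). With the replicate number as a block, 1 of 39 members was called in cortex and 6 of 40 in hypothalamus, beside 7 of 393 and 61 of 380 miRNAs tested. With ZT as a factor instead of a curve, a choice made after seeing the data, none was called in any tissue.

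In liver the 7 members tested had fitted peaks between ZT15.5 and ZT17.4, none past the threshold. MiR-379, described in liver as a glucocorticoid-responsive miRNA that acts on lipid metabolism, had a peak-to-trough of 0.75 ± 0.25 (adjusted p = 0.138), miR-541 of 0.52 ± 0.18 (0.141) and miR-411 of 0.40 ± 0.15 (0.199). With the libraries of 0 to 21 h alone, 2 members were called by edgeR, miR-541 (0.83, adjusted p = 0.0261) and miR-409 (0.89, adjusted p = 0.0408). In the fit of all liver libraries 4.98% of all miRNAs tested were called. With the libraries of 15 to 36 h alone, no member was called. Without liver ZT18 replicate 2, miR-379 was called (adjusted p = 0.0472).

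The ZT15 libraries of liver were high, which was noted after the values were seen. The members' sum had 282 to 443 CPM in the 6 libraries of ZT15 (median 313, mean 332 ± 60.2), against 103 to 364 in the 71 others (median 199, mean 208 ± 61.2). All 6 lay above the median of the others, and 10 of the 71 others reached the lowest of them. Of the 13 members with a liver mean of at least 1 CPM, 11 had their highest ZT mean at ZT15 and the other 2 at ZT18, where 12% of 291 miRNAs had theirs at ZT15 and 41.2% had their lowest mean there.

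MiR-411 had 114 to 199 CPM at ZT15 (median 136.4) and 88.8 ± 25.5 elsewhere (n = 71), and miR-541 had 89.9 to 135 CPM (median 98.4) and 64.5 ± 24.0 elsewhere. MiR-381 had 18.2 ± 4.44 against 11.4 ± 4.05 CPM, miR-300 had 13.2 ± 2.06 against 8.91 ± 2.96, and miR-410 had 11.1 ± 3.01 against 7.24 ± 2.33. Groups overlapped for all of these. The 6 libraries came from runs 12, 13 and 14, with 3, 2 and 1 libraries, and within these runs the sum at ZT15 was 1.40, 1.66 and 1.60 times the mean of the other libraries.

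Beside the members, the other miRNAs of the domain summed to 549 CPM at ZT15 and to 371 to 405 CPM at the other ZT in liver. The neuron markers had 18.0 CPM at ZT15, within the 17.9 to 20.0 of the other ZT, while the oligodendrocyte markers had 62.4 against 62.5 to 68.6. The hepatocyte markers had 432138 CPM against 400789 to 414805, and the blood markers 2047 against 2237 to 3097, so these 3 lists also stood at an end of their range at ZT15. Their part in the members' level was not tested. In cortex the members' sum had its lowest mean at ZT15, 66234 ± 3314 CPM (n = 6), against 71031 to 73584 at the other ZT.

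**Figure D5:**
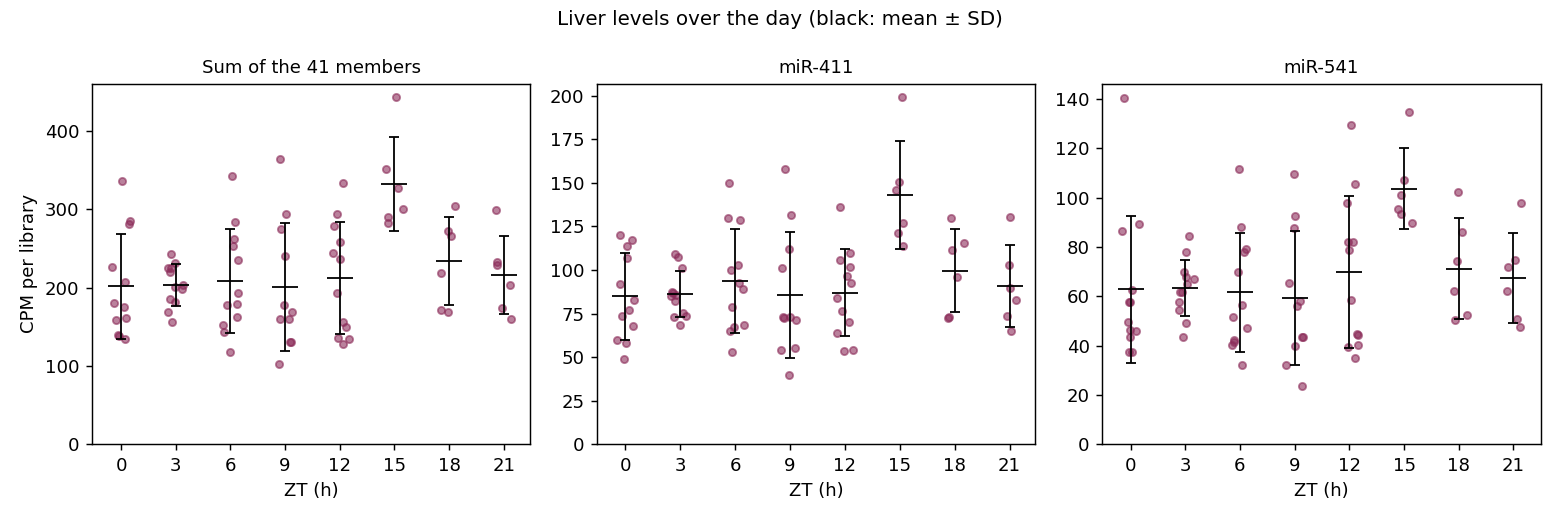
CPM per liver library of the members' sum, miR-411 and miR-541 by ZT (hours), with 1 point per library and black bars for mean ± SD (n = 6 at ZT15, ZT18 and ZT21, 11 or 12 at the others). The 6 libraries of ZT15 lie between 282 and 443 CPM for the sum, above most libraries of the other ZT.

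The 24 h curves of 2 tissues were compared by an interaction term, whose size is the peak-to-trough of the difference curve on the log2 scale. For cortex and liver, 2 of 38 members tested were called, where 1.34% of all miRNAs tested were. Members could pass the filter on low counts of this fit through brain alone, so this count is a description. The liver rhythm fit kept 7 members, with miR-379 among them and miR-376b not. MiR-376b, a member of the miR-376 family known for RNA editing of its precursors, had 1.15 ± 0.26 (adjusted p = 0.00913) with liver highest relative to cortex at ZT15.9. MiR-379 had 0.90 ± 0.23 (adjusted p = 0.0360) at ZT17.0. In liver the level of miR-376b ran from 1.03 to 5.09 CPM at ZT15 (median 3.43), and in the other 71 libraries from 0 to 4.65 (median 1.65), with overlap. MiR-379 had 2.99 to 9.54 CPM at ZT15 (median 6.85) against 0 to 8.44 elsewhere (median 3.71), also with overlap.

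These calls rest on liver levels of a few counts per library and on settings. With the animal as a block, neither was called (adjusted p = 0.142 and 0.222), and miR-379 was not called with RLE size factors (0.0589) or without the filter on low counts (0.102). Leaving out the libraries of replicate 1 took the adjusted p to 0.166 for miR-376b and 0.176 for miR-379, and 0 to 4 members were called over such fits.

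The other pairs of tissues gave no call by edgeR. In the pairs with liver, members could again pass the filter on low counts through brain alone, so their counts are descriptions. For hypothalamus and liver miR-376b had 1.03 (adjusted p = 0.0715, background of calls 0.804%), and DESeq2 called 2. An unadjusted p under 0.05 was found for 10 of 38 members, beside 36 of 373 miRNAs tested. For striatum and liver miR-376b had 1.11 (adjusted p = 0.135, background of calls 1.85%). There 6 of 39 members had an unadjusted p under 0.05, beside 54 of 379 miRNAs tested. For cortex and striatum, cortex and hypothalamus, and striatum and hypothalamus the backgrounds of calls were 0.519%, 0% and 0.811%. The smallest adjusted p of a member was 0.767 (miR-412), 0.999 (miR-679) and 0.933 (miR-673). No member had an unadjusted p under 0.05 in these pairs, beside 22 of 385, 13 of 376 and 20 of 370 miRNAs tested. DESeq2 called 0 in these 3 and in striatum and liver.

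Between passages, the 24 to 36 h libraries were compared with the 0 to 12 h libraries at the same ZT. In cortex 8 of 39 members tested differed (30 libraries in each passage), 7 higher and 1 lower in the second, where 30.7% of all miRNAs tested differed, 17.6% higher and 13.1% lower. The members' share of calls was below that of all miRNAs. MiR-341 ran from 1207 to 2461 CPM in the first passage (median 1827) and 1504 to 2715 in the second (median 2304), with overlap, a log2 ratio of 0.27 ± 0.05 (adjusted p = 1.30e-04, edgeR). MiR-666 ran from 119 to 508 CPM (median 257) and 186 to 559 (median 344), with a log2 ratio of 0.49 ± 0.10 (adjusted p = 3.44e-04).

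The other members higher in the second passage were miR-300 (0.16 ± 0.03), miR-673 (0.16 ± 0.04), miR-381 (0.18 ± 0.05), miR-544 (0.23 ± 0.07) and miR-770 (0.20 ± 0.08), and miR-379 was lower (-0.12 ± 0.04). With library run as a term, miR-341 (0.20, adjusted p = 0.00565), miR-666 (0.36, 0.00688), miR-300 (0.13, 0.0104), miR-673 (0.12, 0.0226), miR-381 (0.15, 0.0316) and miR-544 (0.31, 0.00565) were still called. MiR-770 (0.09, adjusted p = 0.339) and miR-379 (-0.04, 0.585) were not. Of the other miRNAs of the domain, 6 of 10 tested differed, 5 higher and 1 lower. In striatum, hypothalamus and liver edgeR called no member and no other miRNA (background 0% in each), and DESeq2 called 0 members in each. At an unadjusted p under 0.05 there were 4, 0 and 0 members, beside 50 of 381, 4 of 384 and 10 of 246 miRNAs tested. Over the 60 fits that left out 1 cortex library each, 6 to 12 members were called; miR-770 lost its call in 34 of them and miR-379 in 6.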

How the data were processed

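The authors deposited 1 table per tissue with raw whole-number counts per miRNA hairpin and library, not normalized. Per the submitters' processing notes, STAR 2.7.3a and HTSeq 0.10.0 were used with GRCm38 (mm10); trimming, the miRBase release and the treatment of multi-mapped reads are not given in the sources used here. Per the labels' protocols, total RNA was taken from frozen tissue with a kit that keeps small RNA, and a small RNA fraction was used for Illumina libraries. Of 1226 hairpins, 222 had no count in any library.

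The counts were tested with edgeR 4.0.16 (R 4.3.3): TMM, filterByExpr, quasi-likelihood tests, Benjamini-Hochberg adjustment over all features tested, threshold 0.05. Rhythm used cosine and sine terms of 24 h, passages and tissues used ZT as a factor, and differences between rhythms used interaction terms. Tissue calls also needed a log2 ratio of at least 1. Each kind of test recovered known changes in simulated counts. Rhythm and passage were simulated for cortex alone, and rhythm differences for cortex and liver alone. The simulation gave all miRNAs the same dispersion, had no steps between runs and started all tissues of the tissue test from the cortex profile. It therefore does not show how the tests behave with run steps or with tissues of unlike composition. Nor does it cover rhythm and passage in the other tissues. DESeq2 1.42.0, other scalings, no filter, blocks, library run as a term and leaving out libraries were alternatives; 2 more (without the 12 libraries that stood apart by a median absolute log2 deviation above 0.4, and ZT as a factor for rhythm) were chosen after seeing the data. Values by library were computed with pandas 2.3.3 and figures with matplotlib 3.10.9. A library run is an unbroken sequence of library numbers under the same L code.

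Besides genotype, sex and age, shared by all samples, and library numbers and codes, the labels give animal, tissue, time and replicate number. The p-values thus measure the spread between these libraries. Tissues of 1 animal are paired by its label; the median correlation of same-animal deviations was between -0.0559 and 0.0449 over the pairs of tissues. One striatum library, ZT9 replicate 9, carries an animal label that begins with CR where the others begin with CRM. It was counted as an animal of its own among the 79 labels. The same number with CRM labels libraries of the same ZT and passage in cortex, hypothalamus and liver. Replicate numbers mark no shared animal within a tissue, and same-numbered libraries had median correlations of 0.0427 to 0.162, with negative values among them, so they were not taken as pairs.

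Named are the 6 members highest in brain, the 3 highest in liver, the 3 called members with the largest ratio in each direction for each pair of tissues (at least 10 CPM in the higher), each member called for rhythm, rhythm difference or passage (at most 6 with the smallest adjusted p, to which 2 were added in cortex passages), the member with the smallest adjusted p where none was called, members that share a seed, and members without counts. The members and the lists, which are the 17 other miRNAs of the domain and markers of neurons, oligodendrocytes, hepatocytes, blood, choroid plexus, epithelium and pituitary, and vessels, were chosen with earlier results of these data known.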

Additional observations from a re-analysis of the deposited data

Results flagged for a closer look

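Values that stood away from their group were looked for in groups of 4 to 10 libraries of 1 tissue and ZT, in the members' summed share for every tissue and in miR-376b and miR-379 for cortex and liver. There were 28 such checks of 1 measure in 1 group, by the gap to the nearest library over the range of the group, and 3 were found; chance gives about 1 in 20 checks. In striatum ZT9 replicate 9 the members held 5.45% of the counts, while the other libraries of the group ran from 7.46% to 9.01% (n = 9). The same library had 104998 CPM of the choroid plexus markers miR-204 and miR-211, the most of any striatum library, where the striatum median was 14561 CPM. In striatum ZT21 replicate 3 the members held 4.11%, against 7.78% to 9.11% in the rest of its group (n = 5), the other miRNAs of the domain held 16.7% against a striatum median of 30.7%, and the choroid plexus markers had 34869 CPM. The part of those markers in the members' share was not tested.

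In cortex ZT18 replicate 5, miR-379 had 600 CPM, against 468 to 515 CPM in the other libraries of the group (n = 6).

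The curves over the day differed between cortex and liver for miR-376b, by a peak-to-trough of 1.15 on the log2 scale, and for miR-379, by 0.90, both by the interaction term in edgeR (adjusted p = 0.00913 and 0.0360). The number of liver libraries higher than the median of the other ZT was 5 of 6 at ZT15 for each of them. MiR-376b did not pass the filter on low counts of the liver rhythm fit.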

How the results depend on the processing

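Of the values that answer a comparison, 167 stayed on the same side or within 1.5 times and 16 moved, counting each alternative apart from leaving out libraries; for single members 555 kept their call, 16 lost it, 3 gained it and none turned its direction. With RLE size factors, and equally with DESeq2, 12 members differed between cortex and hypothalamus and 3 between cortex and striatum; RLE left 1 rhythm difference between cortex and liver, no filter left 1 and the animal as a replicate block left 0. DESeq2 gave 2 rhythm differences between hypothalamus and liver. Without the libraries that stood apart, 1 member differed between striatum and hypothalamus, 1 rhythm differed between hypothalamus and liver, and 12 members differed between cortex passages. The replicate number as a block gave 1 rhythm in cortex (miR-667), 6 in hypothalamus and 6 passage calls in cortex. The 0 to 21 h libraries alone gave 2 rhythms in liver, and the 15 to 36 h libraries alone gave none there. With the other miRNAs of the domain left out of the denominator, the summed shares were 9.79% in cortex, 11.4% in striatum and 14.7% in hypothalamus. The replicate blocks changed no other count by over 1.5 times. The cause of these moves was not tested.

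Leaving out 1 library or 1 replicate number at a time gave 6 to 12 passage calls in cortex and 0 in the other tissues, 6 to 7 members between cortex and hypothalamus (miR-382 was at -0.98 without replicate 1), 1 between cortex and striatum, 1 to 3 between striatum and hypothalamus (1 without replicate 2), and 40 between liver and each brain region. Rhythm calls stayed at 0 in brain and ran from 0 to 1 in liver. Rhythm differences ran from 0 to 4 for cortex and liver and 0 to 1 for hypothalamus and liver, and were 0 for the other pairs.

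In liver 28 of 41 members had a mean under 1 CPM, near or below the level of 3 counts in a library. The sum of both arms in 1 count, and the run steps of miR-369 and miR-543 limit comparisons of single members across libraries. Totals that hold much of the domain lower each other's shares.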

Other observations

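Spread within a region differed among abundant members. Among members with a mean of at least 100 CPM, the coefficient of variation over all libraries of a region had a median of 13.1% in cortex (29 members), 25.4% in striatum (30) and 15.3% in hypothalamus (30). In cortex it was lowest for miR-411 (6.88%) and miR-410 (8.18%), and in hypothalamus for miR-379 (8.37%) and miR-134 (8.47%). It was highest for miR-543 in cortex (46.1%) and hypothalamus (47.0%) and for miR-495, a repressor of Bdnf, in striatum (48.9%).

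By ZT, the brain regions did not share a time of the highest means. In hypothalamus 18 of 40 members with a mean of at least 1 CPM had their highest ZT mean at ZT18, where 24.5% of all miRNAs at that level had theirs, and 15 had their lowest at ZT12, against 24.3%. In cortex 25 of 40 had their lowest mean at ZT15, against 37.6%. In striatum 12 of 40 had their highest mean at ZT9, against 20.1%. ZT15, ZT18 and ZT21 rest on 2 to 6 libraries in each region, and no member passed the test for a rhythm or for ZT as a factor in these regions.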
